A study of Mus musculus with 503 samples.

Results

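The genes described here are 10 genes that act on collagen after its translation: 3 prolyl 4-hydroxylase subunits (*P4ha1*, *P4ha2*, *P4ha3*), 2 lysyl hydroxylases (*Plod1*, *Plod2*), 4 lysyl oxidases (*Lox*, *Loxl1*, *Loxl2*, *Loxl3*) and *Serpinh1*, which encodes the collagen chaperone HSP47 and is no enzyme. They were taken by symbol from the 56701 gene rows of a single-cell count table. All 10 symbols were found, and each had counts on all 4 plates. The cells came from the spinal cord of adult GLAST-CreERT2;R26R-tdTomato;Pdgfrb-eGFP mice, female by the labels, although the methods name both sexes for sequencing. In these animals tamoxifen switches on tdTomato, permanently, in cells that use the GLAST gene (*Slc1a3*), and EGFP follows *Pdgfrb*, a gene shared by perivascular fibroblasts, pericytes and the smooth muscle of vessels (vSMCs, vascular smooth muscle cells). EGFP+ cells with tdTomato (tdTomato+EGFP+) or without it (tdTomato-EGFP+) were sorted from uninjured cord, or from the lesion at 3 days after a complete crush (spinal cord injury, SCI), and were sequenced one by one with Smart-seq3. The comparisons ask how far these genes differed between the sorted populations, and between uninjured and injured cord.

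Collagen chains are modified inside the endoplasmic reticulum. Prolyl 4-hydroxylases add hydroxyl groups to proline, without which the triple helix is not stable at body temperature. Lysyl hydroxylases modify lysine, and HSP47 binds the folded helix and keeps it from clumping on its way out. After secretion, lysyl oxidases convert lysine and hydroxylysine into reactive aldehydes that join neighbouring molecules into crosslinked fibrils, and LOX and LOXL1 also act on elastin. The hydroxylases need oxygen as a substrate, and scars that are rich in crosslinked collagen are stiff.

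After filtering, 468 cells entered the analysis. Plate 209 held 65 and plate 213 held 72 uninjured tdTomato+EGFP+ cells, beside 46 and 60 tdTomato-EGFP+ cells. After injury plate 211 held 88 and plate 215 held 34 tdTomato+EGFP+ cells, beside 58 and 45 tdTomato-EGFP+ cells. Each group had between 25645409 and 38406035 counts in all, and the median cell of a group had between 204006 and 271660 counts. No plate held both conditions, so plate and injury cannot be told apart. The 34 injured tdTomato+EGFP+ cells of plate 215 stood apart, with a median of 14770 counts, and plate 211 gave 94.6% of that group's counts. No animal is named in the labels, so each group was 1 sample and no test was possible. A level is given as CPM, the counts of a gene per 1000000 counts after summing the cells of a group, with a 95% exact Poisson interval. These intervals, and those of shares of cells, cover counting error only. A difference is a difference of log2(CPM + 1) and carries its range over plates, or over the 4 ways to pair an injured with an uninjured plate. A gene was called higher or lower when the difference was at least 1 (2-fold), the level reached 10 CPM in the higher group, and every plate or plate pair had the same sign. *Slc1a3* stood at 212 and 207 CPM in the uninjured and injured tdTomato+EGFP+ groups and at 31.5 and 10.7 CPM in the tdTomato-EGFP+ groups. The summed level of 9 perivascular fibroblast markers was 4382 and 2339 CPM in the uninjured tdTomato+EGFP+ and tdTomato-EGFP+ groups, and 22150 and 9885 CPM after injury. That of 9 pericyte markers was 11100, 12230, 730.0 and 11320 CPM in the same order. Summed levels of 7 stromal fibroblast markers were 227, 199, 2417 and 2134 CPM, those of 6 cycling markers 12.9, 7.03, 1216 and 674 CPM, and those of 6 vSMC markers 996, 2931, 1457 and 2980 CPM. Astrocyte, oligodendroglial and macrophage or microglia markers summed to at most 299 CPM in any group, and *Olig1* and *Olig2* were at 0 after injury. These marker levels moved with injury, and their part in the summed levels below was not tested.

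At 3 days after SCI, 6 of the 10 genes were called higher in tdTomato+EGFP+ cells and 6 in tdTomato-EGFP+ cells. In both populations these were *Plod2*, *Serpinh1*, *Lox*, *Loxl1*, *Loxl2* and *Loxl3*, and none of the 10 was called lower. *P4ha1*, *P4ha2* and *Plod1* stayed under the 2-fold limit in both populations, and *P4ha3* stayed under 10 CPM in all 4 groups. Over all genes that reached 10 CPM, 10.8% were called higher and 34.3% lower in tdTomato+EGFP+ cells, and 9.52% higher and 17% lower in tdTomato-EGFP+ cells. The median difference of the 10 genes was 1.63 in tdTomato+EGFP+ cells, where the median of all genes was -0.59. In tdTomato-EGFP+ cells the corresponding medians were 1.39 and -0.20. With TMM scaling, which shifts the medians of all genes to 0.13 and 0.10, the medians of the 10 genes were 2.30 and 1.61.

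**Figure D1:**
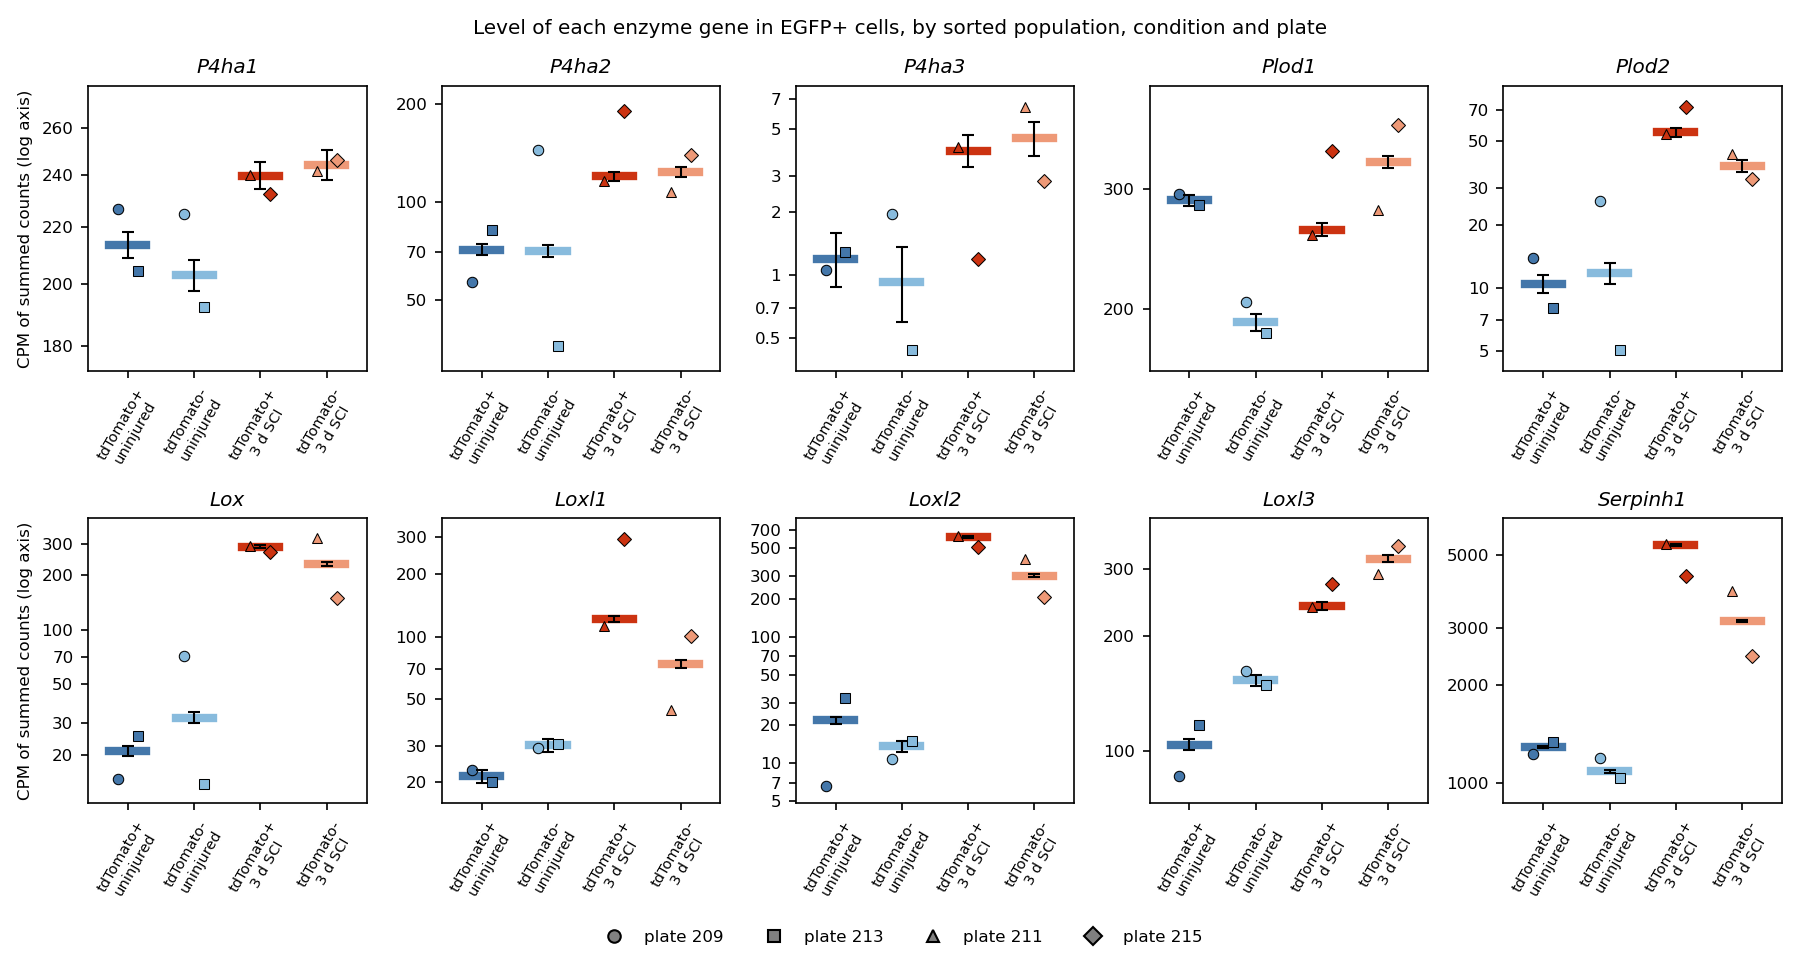
Level of each gene in CPM of summed counts (log axis, a separate scale per gene) in the 4 groups; thick lines are group values with 95% exact Poisson intervals, and symbols are the 2 plates of each group. *Loxl2* and *Serpinh1* lie higher on both injured plates than on both uninjured plates, while *P4ha1* spans only 203 to 244 CPM over the groups.

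Among the prolyl 4-hydroxylase subunits, *P4ha1* encodes the widely used catalytic subunit. With tdTomato it went from 214 CPM (209 to 218) before to 240 CPM (234 to 245) after injury, and without tdTomato from 203 CPM (197 to 208) to 244 CPM (238 to 250). The 8 plate values ran from 192 to 246 CPM, and the injured plates lay above the uninjured ones by at most 0.35 on the log2 scale. The summed differences were 0.17 and 0.27, and TMM scaling, which is relative to the other genes, put them at 0.84 in tdTomato+EGFP+ and 0.55 in tdTomato-EGFP+ cells. *P4ha2*, the second catalytic subunit, stood at 71.1 and 70.6 CPM in the uninjured groups and at 119.5 and 123.7 CPM in the injured groups. Its plates disagreed: uninjured tdTomato-EGFP+ cells gave 143.6 CPM on plate 209 and 36 CPM on plate 213. The injury difference was 0.74 (0.50 to 1.73) in tdTomato+EGFP+ cells and 0.80 (-0.42 to 1.92) in tdTomato-EGFP+ cells, the latter with both signs among plate pairs. *P4ha3* was near the limit of detection, at 1.2 and 0.93 CPM before and 3.95 and 4.52 CPM after injury.

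In cells thinned to 20000 counts, so that depth is equal, *P4ha1* had a count in 71.7% of uninjured and 89% of injured tdTomato+EGFP+ cells. The share with a *P4ha2* count went from 34.6% (26.4 to 43.6) to 73% (63.2 to 81.4) in that population. It went from 38.04% (28.1 to 48.8) to 59.8% (49.6 to 69.4) without tdTomato. So more cells had a *P4ha2* count after injury in both populations, although the summed level did not pass the 2-fold limit. Injured cells had counts of more genes in general. The median number of genes per cell, before thinning, was 6957 in uninjured and 9189 in injured tdTomato+EGFP+ cells. In tdTomato-EGFP+ cells it was 6730 and 7831. Thinning sets counts equal but not the number of genes, and its part in the shares of thinned cells here and below was not tested. Thinning left out 10, 14, 22 and 1 shallower cells in the order of the groups above, and without thinning the *P4ha2* shares were 43.8%, 45.3%, 84.4% and 74.8%.

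The promoter table used here, from RefSeq (GRCm38.p6), holds 5 of the 10 genes (*P4ha1*, *P4ha2*, *P4ha3*, *Plod1*, *Serpinh1*) and no entry for *Plod2*, *Lox*, *Loxl1*, *Loxl2* or *Loxl3*. The letters ACGTG, the core of the element bound by hypoxia-inducible factors, were looked for on both strands in the 250 bases before the transcript start. They occur in 16.6% of all 32851 promoters, and in those of *P4ha1*, *P4ha2* and *Serpinh1*. The longer TACGTG, which contains ACGTG, occurs in 2.72% of promoters, and among the 5 genes in *P4ha1* (on the minus strand, 16 bases before the start) and *P4ha2* (78 bases before it). GCGTG occurs in 28.2% of promoters and in those of *P4ha1*, *P4ha2* and *Plod1*. TTCNNGAA, which is only a part of a full heat shock element, occurs in 7.17% and in that of *P4ha2* alone. The 3 promoters with ACGTG are shown so that these letters can be set beside the values, in which *P4ha1* and *P4ha2* were not called after injury and *Serpinh1* was. Capitals mark ACGTG or its reverse complement, and each line reads 5′ to 3′ on the gene's own strand. The *P4ha1* line is the last 30 bases before the transcript start of its promoter entry (chr10:59323266-59323295, plus strand). The *P4ha1* gene is placed at chr10:59323197-59373304, so that start lies inside the gene, and so do the bases shown. The *P4ha2* line spans chr11:54100674-54100923 (plus strand) and the *Serpinh1* line chr7:99353240-99353489 (minus strand).
P4ha1: ggtgtgacagagcgCACGTagcgagggctg
P4ha2: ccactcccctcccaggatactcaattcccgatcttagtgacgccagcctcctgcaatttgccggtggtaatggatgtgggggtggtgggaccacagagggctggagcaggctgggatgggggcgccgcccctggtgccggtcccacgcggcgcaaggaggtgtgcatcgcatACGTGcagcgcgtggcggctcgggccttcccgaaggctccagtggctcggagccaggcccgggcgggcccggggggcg
Serpinh1: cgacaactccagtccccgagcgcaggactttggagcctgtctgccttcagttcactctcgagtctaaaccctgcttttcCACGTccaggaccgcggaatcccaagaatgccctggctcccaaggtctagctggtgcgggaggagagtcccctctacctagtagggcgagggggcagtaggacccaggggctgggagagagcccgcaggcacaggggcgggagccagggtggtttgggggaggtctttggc
These matches describe letters only and say nothing of binding in these cells.

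Of the 2 lysyl hydroxylases, *Plod2* was called higher after injury and *Plod1* was not. *Plod1*, which modifies lysines of the helix, stood at 288 CPM (283 to 294) in uninjured and 261 CPM (255.5 to 266.9) in injured tdTomato+EGFP+ cells. In tdTomato-EGFP+ cells it stood at 191 CPM (186 to 196) before and 328 CPM (322 to 335) after injury. The difference was -0.14 (-0.20 to 0.26) in tdTomato+EGFP+ cells, a sign that flips to 0.53 with TMM scaling, and 0.78 (0.45 to 1.01) in tdTomato-EGFP+ cells. *Plod2*, which modifies lysines of the telopeptides and so shapes the later crosslinks, was scarce before injury, at 10.5 CPM (9.47 to 11.5) and 11.7 CPM (10.5 to 13.1). After injury it reached 55.02 CPM (52.4 to 57.7) in tdTomato+EGFP+ and 37.98 CPM (35.6 to 40.4) in tdTomato-EGFP+ cells. All 4 plate pairs lay higher, by 1.89 to 3.03 in tdTomato+EGFP+ and 0.34 to 2.88 in tdTomato-EGFP+ cells. The uninjured tdTomato-EGFP+ cells gave 25.8 CPM on plate 209 and 5.04 CPM on plate 213, and without plate 213 the difference in that population was 0.54 and no longer a call. In thinned cells the share with a *Plod2* count was 13.4% (7.99 to 20.6) before and 61% (50.7 to 70.6) after injury in tdTomato+EGFP+ cells. In tdTomato-EGFP+ cells it was 15.2% (8.58 to 24.2) and 24.5% (16.5 to 34.02), and these intervals overlap.

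*Serpinh1* was detected in nearly all cells before injury and was higher after it. Its level was 1292 CPM (1281 to 1303) before and 5369 CPM (5343 to 5395) in injured tdTomato+EGFP+ cells, and 1088 CPM (1076 to 1101) and 3142 CPM (3120 to 3164) in tdTomato-EGFP+ cells. The uninjured plates lay between 1036 and 1335 CPM and the injured plates between 2461 and 5428 CPM, with no overlap. Differences were 2.05 (1.70 to 2.14) and 1.53 (1.04 to 1.91). Among single cells with 20000 counts or more, the median was 1098 CPM in uninjured tdTomato+EGFP+ cells (lowest 0, highest 6893) and 5342 CPM in injured ones (lowest 931, highest 10170). In tdTomato-EGFP+ cells the medians were 998 (13.7 to 8563) and 2723 CPM (437 to 10410).

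All 4 lysyl oxidases were called higher after injury in both populations. *Loxl2*, a secreted oxidase that also crosslinks basement membrane collagen, had the largest difference of the 10 genes in both. With tdTomato, its level was 21.9 CPM (20.4 to 23.4) before and 615 CPM (606 to 624) after injury. In tdTomato-EGFP+ cells the levels were 13.6 CPM (12.3 to 15.1) and 303 CPM (297 to 310). The uninjured plates lay between 6.66 and 32.9 CPM and the injured plates between 204 and 621 CPM. The differences were 4.75 (3.91 to 6.34) and 4.38 (3.69 to 5.12). The median injured tdTomato+EGFP+ cell had 559 CPM of *Loxl2* (lowest 5.73, highest 1620), whereas the median uninjured cell of either population had 0.

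*Lox*, the founding member of the family, went from 21.1 CPM (19.7 to 22.6) to 289 CPM (283 to 295) with injury in tdTomato+EGFP+ cells. In tdTomato-EGFP+ cells it stood at 32.4 CPM (30.2 to 34.6) before and 233 CPM (227 to 238) after injury. The differences were 3.71 (3.35 to 4.21) and 2.81 (1.06 to 4.45). Injured tdTomato-EGFP+ cells reached their level through few cells: 31.4% (22.6 to 41.3) of thinned cells had a *Lox* count, against 85% (76.5 to 91.3) of injured tdTomato+EGFP+ cells. The median injured tdTomato-EGFP+ cell had 0 CPM of *Lox* and the highest 3653 CPM, while the median injured tdTomato+EGFP+ cell had 216 CPM and the highest 1172 CPM. The uninjured level rested on few cells as well, with 26.5% and 26.3% of the *Lox* counts of the tdTomato+EGFP+ and tdTomato-EGFP+ groups in 1 cell each.

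*Loxl1*, needed for elastic fibres, went from 21.4 CPM (19.96 to 22.9) to 121.9 CPM (118.1 to 125.9) with injury in tdTomato+EGFP+ cells. In tdTomato-EGFP+ cells it stood at 30.1 CPM (28.1 to 32.3), of which 1 cell gave 46.7%, and at 74.2 CPM (70.9 to 77.6) after injury. The differences were 2.46 (2.23 to 3.80) and 1.27 (0.53 to 1.75), and without plate 215 the second was 0.55 and no longer a call. *Loxl3* is the remaining called oxidase. It stood at 104.1 CPM (100.9 to 107.4) and 153.3 CPM (148.7 to 158.1) before, and 240 CPM (235 to 246) and 320 CPM (313 to 327) after injury, in tdTomato+EGFP+ and tdTomato-EGFP+ cells. The differences of 1.2 (1.02 to 1.66) and 1.05 (0.84 to 1.21) were the smallest among the 6 called genes. In tdTomato-EGFP+ cells the difference was under the limit without plate 215 (0.92) or without plate 213 (0.98).

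**Figure D2:**
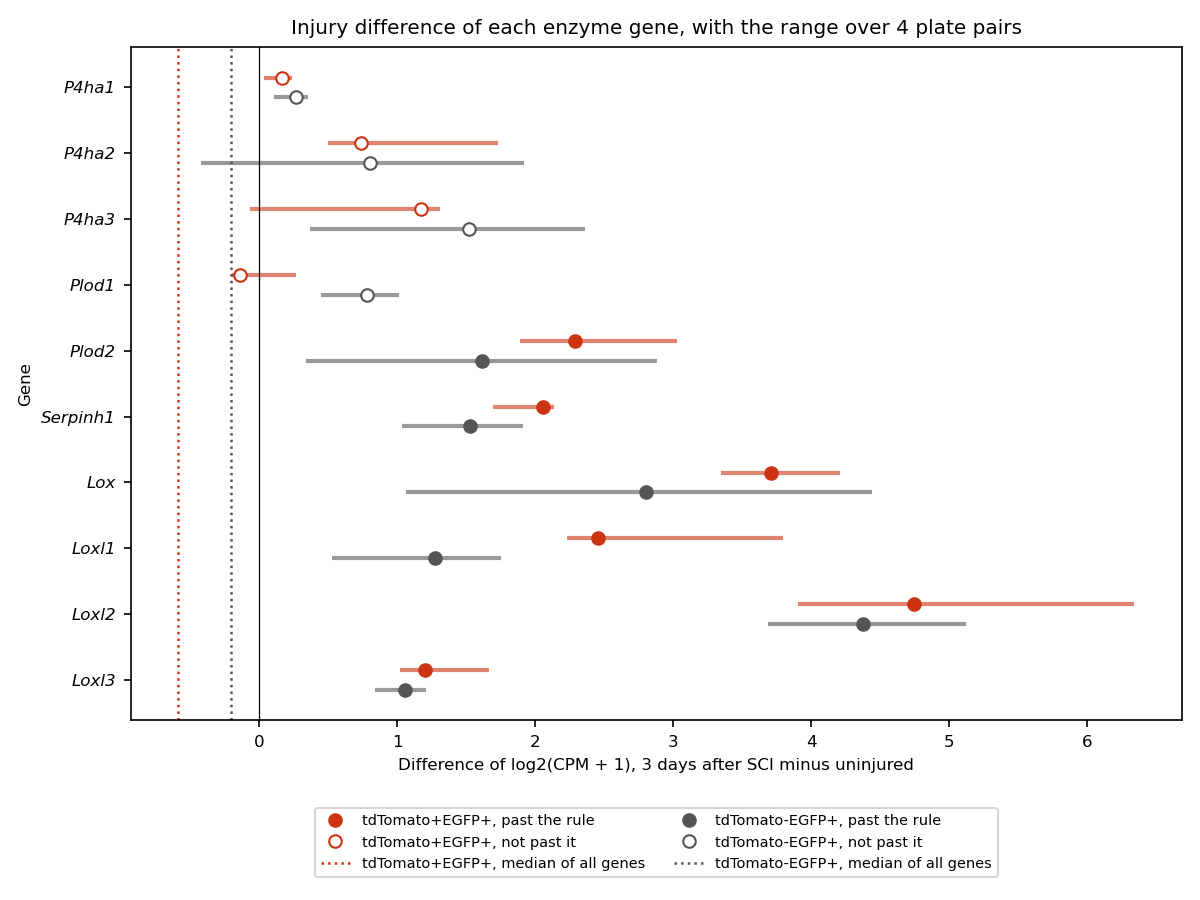
Difference of log2(CPM + 1), 3 days after SCI minus uninjured, for each gene (points) with the range over 4 plate pairs (lines); filled points passed the rule for a call, and dotted lines mark the median of all genes (-0.59 in tdTomato+EGFP+ and -0.20 in tdTomato-EGFP+ cells). *Loxl2* lies farthest right in both populations, at 4.75 and 4.38, and *P4ha1* and *Plod1* lie nearest 0 in tdTomato+EGFP+ cells.

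None of the 10 genes was called between uninjured tdTomato+EGFP+ and tdTomato-EGFP+ cells, where 4.31% of all genes were called higher and 3.61% lower. Among genes with 1 sign on both plates, the largest differences, tdTomato+EGFP+ minus tdTomato-EGFP+, were those of *Plod1* at 0.59 (0.52 and 0.62 on the 2 plates) and *Loxl3* at -0.55 (-0.90 and -0.35). *P4ha2*, *P4ha3*, *Plod2*, *Lox* and *Loxl2* had opposite signs on the 2 plates, and the median of the 10 genes was -0.58 on one plate and 0.60 on the other, against 0.04 in the sums. *Lox*, for example, differed by -2.20 on plate 209 and 0.84 on plate 213. The small summed differences therefore hold larger ones of opposite sign within plates.

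After injury *Loxl2* alone was called higher in tdTomato+EGFP+ than in tdTomato-EGFP+ cells, by 1.02 (0.59 and 1.31), where 4.31% of all genes were called higher and 17.9% lower. The call does not hold without plate 215, which leaves 0.59, or when CPM is averaged over cells in place of summing, which gives 0.89. TMM scaling calls *Loxl1* (1.09) and *Serpinh1* (1.15) as well, and DESeq2 size factors also *Plod2* (1.04). *Loxl1* was higher by 1.31 on plate 211 and 1.53 on plate 215, past the limit on both, but by only 0.71 in the sums. Its level on plate 215 exceeded that on plate 211 in both populations (293 against 112.2 CPM in tdTomato+EGFP+ and 101.2 against 44.5 CPM in tdTomato-EGFP+ cells), and plate 215 gave 5.39% of the counts of the first group and 52.4% of the second. *Serpinh1* was higher by 0.77 (0.48 and 0.81). *Plod1* differed by -0.33 (-0.12 and -0.13), a sign that TMM scaling turns (0.05), and *Loxl3* by -0.41, a sign that DESeq2 size factors turn (0.11).

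When the injury effect of one population was taken from that of the other, *Loxl1* alone was called, and its effect was larger in tdTomato+EGFP+ cells by 1.18. Over plate pairs the range was 1.65 to 2.10, and 4.57% of all genes were called in that direction and 20.6% in the other. Without the top cell of each gene and group the value was 0.69 and no longer a call. *Plod1* had the opposite sign, with a difference of -0.92 in the sums and -0.75 to -0.65 over plate pairs. *Lox* had 0.91 in the sums but -0.999 to 3.04 over plate pairs, so no direction can be read from it.

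The other genes of collagen handling and the substrates were compared in the same way. Of 26 further collagen-processing genes, 5 were called higher and 3 lower after injury in tdTomato+EGFP+ cells, and 10 higher and 3 lower in tdTomato-EGFP+ cells. Of the 26, 20 and 22 reached 10 CPM and could be called, and the shares over all genes were 10.8% higher and 34.3% lower with tdTomato and 9.52% higher and 17% lower without it. *P4hb*, the shared subunit of the prolyl 4-hydroxylases, was higher by 1.67 in tdTomato+EGFP+ and 1.099 in tdTomato-EGFP+ cells, the order used for the pairs of values that follow. *Fkbp10*, a folding enzyme that works with the lysyl hydroxylases, was higher by 2.16 and 2.22, and *Bmp1*, which cleaves the C-propeptide of procollagen and the propeptide of LOX, by 2.49 and 2.56. *Sparc*, a collagen-binding matrix protein, was higher by 1.21 and 1.63. *Colgalt2*, a collagen galactosyltransferase, was lower, with differences of -3.32 and -1.87. *Plod3*, the remaining lysyl hydroxylase, differed by 0.63 in tdTomato+EGFP+ cells, under the limit, and by 1.19 in tdTomato-EGFP+ cells. *Loxl4*, the remaining lysyl oxidase, stayed under 10 CPM in all groups, at 2.21, 1.75, 9.15 and 3.98 CPM.

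Of 13 substrate genes, 8 were called higher and 1 lower in tdTomato+EGFP+ cells, and all 13 higher in tdTomato-EGFP+ cells. All 13 reached 10 CPM. Over all genes, 10.8% were called higher and 34.3% lower with tdTomato, and 9.52% higher and 17% lower without it. The fibrillar collagen gene *Col1a1* was higher by 2.34 and 2.61 and *Col3a1* by 2.64 and 2.30. The gene that was lower, elastin (*Eln*), differed by -1.67 in tdTomato+EGFP+ cells (23.9 CPM before and 6.84 CPM after injury) and by 3.09 in tdTomato-EGFP+ cells (26.9 and 237 CPM). The median difference of the list was 1.67 and 2.30. The median of the effect in tdTomato+EGFP+ minus that in tdTomato-EGFP+ cells was 0.26 for the 10 genes, -0.69 for the substrates and -0.39 for all genes. Over plate pairs the first ran from -0.39 to 1.28 and the second from -1.09 to 0.47, so no direction can be read from either.

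Of 12 general folding genes of the endoplasmic reticulum, 6 were called higher in tdTomato+EGFP+ cells and 1 in tdTomato-EGFP+ cells, with list medians of 1.01 and 0.63. All 12 reached 10 CPM, and 10.8% and 9.52% of all genes were called higher. The count in tdTomato-EGFP+ cells was thus near the share over all genes. The chaperone *Hspa5* was higher by 1.24 and 0.62, smaller values than those of *Serpinh1*. Of 16 hypoxia-induced genes, 6 were called higher and 5 lower in tdTomato+EGFP+ cells, and 5 higher and 3 lower in tdTomato-EGFP+ cells. With 14 and 15 of the 16 at 10 CPM or more, the counts of lower genes were near the shares over all genes given above (34.3% and 17%). *Vegfa* was higher by 1.86 and 2.16 and *Hk2*, a glycolytic enzyme, by 2.95 and 2.30, but *Pdk1* (-2.07 and -1.30), *Slc2a1* (-3.63 and -1.38) and *Ndrg1* (-4.21 and -1.83) were lower. *Slc2a1* is also the glucose transporter of barrier endothelium, and 5 endothelial markers moved with it: their summed level was 3635 and 3947 CPM before and 345 and 1423 CPM after injury. The part of endothelial RNA in these 16 genes was not tested.

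To place the 10 genes among cell types, the cells were clustered with these genes kept out of the variable genes. There were 7 clusters. Cluster 3 (71 cells) was perivascular fibroblast-like, with 9 of 9 markers raised, and held cells of both conditions (34 uninjured and 37 injured). Of its uninjured cells 26 were tdTomato+EGFP+ and 8 tdTomato-EGFP+, and of its injured cells 18 and 19. Its values by condition therefore mix the sorted populations in unequal parts. Of 7 stromal fibroblast markers, 3 were raised in it. Clusters 4 (48 cells) and 6 (33 cells) were pericyte-like, with 7 and 8 of 9 markers raised. Cluster 4 had no uninjured cell and 47 of its 48 cells came from injured tdTomato-EGFP+ cord, and 4 of 7 stromal fibroblast and 3 of 6 vSMC markers were raised in it as well. Cluster 6 was almost all uninjured (31 of 33). Cluster 7 (18 cells) was vSMC-like. Cluster 1, the largest, was left without a name. In it 6 of 9 perivascular fibroblast, 4 of 7 stromal fibroblast, 2 of 6 vSMC and 6 of 6 cycling markers were raised. Proliferation genes such as *Top2a* were among its leading genes, and it held 81.97% of injured tdTomato+EGFP+ cells. Clusters 2 and 5 carried pericyte and endothelial markers together and were left without a name. Cluster 2 held 46.85% and 54.51% of the counts of the uninjured tdTomato+EGFP+ and tdTomato-EGFP+ groups, and 0.043% and 4.95% after injury. For cluster 5 these shares were 17.06%, 8.19%, 0.58% and 11.24% in the same order. The part of these 2 clusters in the summed injury differences was not tested. Clusters 1 and 4 are mostly 1 group each, so a cell type and a group cannot be told apart there, and the values that follow are descriptions.

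**Figure D3:**
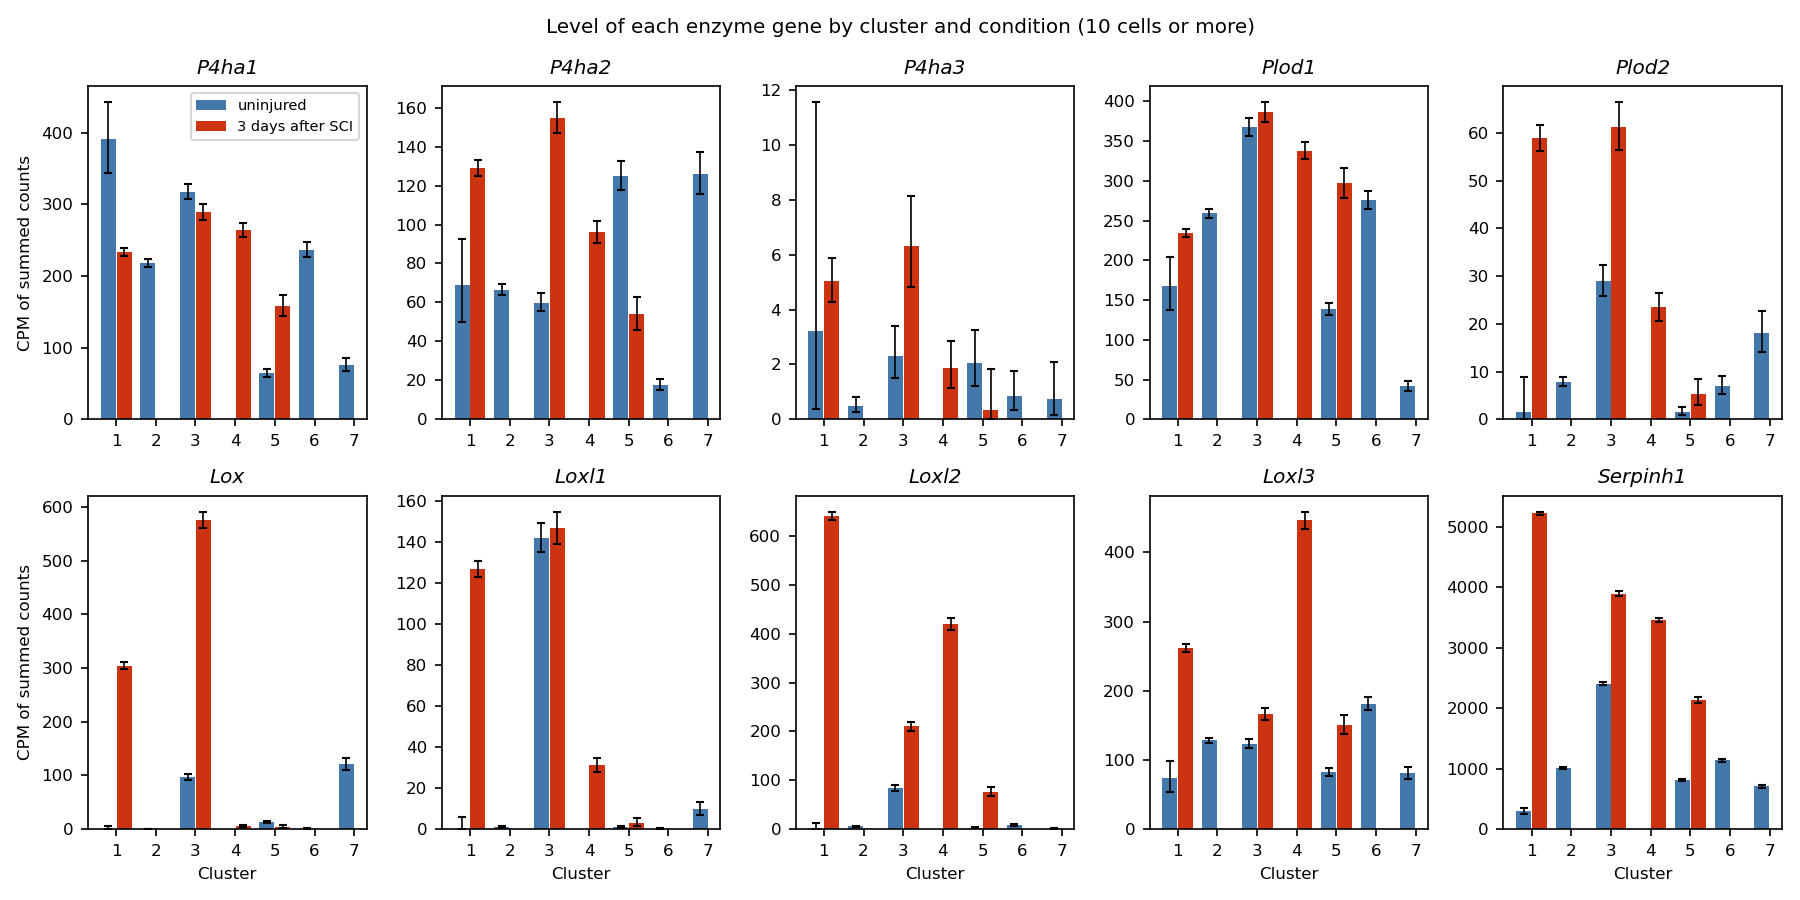
Level of each gene in CPM of summed counts by cluster and condition, for combinations with 10 cells or more; error bars are 95% exact Poisson intervals, and combinations with fewer cells are not drawn. *Lox* and *Loxl1* are high in clusters 1 and 3, and *Lox* also in uninjured cells of cluster 7, whereas *Loxl2* and *Loxl3* are also high in cluster 4. Uninjured cluster 1 holds 10 tdTomato+EGFP+ and 9 tdTomato-EGFP+ cells, of which 9 and 8 had under 20000 counts. Its bars rest on few counts, and 1 cell gave 99.6% of its *P4ha1* counts on plate 213.

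*Loxl1* was highest in fibroblast-like cluster 3 before injury, while *Lox* was also high in vSMC-like cells. After injury the plates disagreed on the order of clusters 3 and 1 for *Loxl1*. Cluster 3 had 114.4 CPM against 109.9 CPM in cluster 1 on plate 211, and 216.7 against 241.9 CPM on plate 215. In uninjured cord *Lox* stood at 97.3 CPM (91.5 to 103.3) in cluster 3, and at 0.49 CPM in pericyte-like cluster 6, with 4 counts over 31 cells. After injury it stood at 576 CPM (560 to 591) in cluster 3, 304 CPM (298 to 311) in cluster 1 and 5.39 CPM (4.12 to 6.92) in pericyte-like cluster 4, where 1 cell gave 95.1% of the counts. *Loxl1* differed by only 0.05 between the conditions in cluster 3, from 142.4 CPM (135.4 to 149.7) in uninjured cells. In cluster 6 it had 0 counts, where a floor of 3 counts is 0.365 CPM in its uninjured cells, and in cluster 4 it had 31.1 CPM (27.9 to 34.5). Cluster 3 held 94.9% of all *Loxl1* counts and 62.98% of all *Lox* counts of uninjured cells. The vSMC-like cluster 7 held a further 30% of the uninjured *Lox* counts. Its interval of 110.7 to 132.1 CPM lay above that of cluster 3, with 45.4% of its counts in 1 of 17 cells. The plates disagreed on that order, with 294 CPM in cluster 7 against 108.7 CPM in cluster 3 on plate 209, and 45.8 against 90.8 CPM on plate 213.

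*Loxl2* and *Loxl3* were also high in pericyte-like cluster 4. *Loxl2* stood at 7.66 CPM (5.88 to 9.80) in uninjured cells of cluster 6 and at 421 CPM (409 to 433) in cluster 4, above the 210 CPM (201 to 219.5) of injured fibroblast-like cells and below the 641 CPM (632 to 650) of cluster 1. On the 2 injured plates cluster 4 gave 606 and 239 CPM and cluster 3 gave 258 and 107 CPM, so cluster 4 was higher on each. Cluster 4 held 56.4% of the *Loxl2* counts of injured tdTomato-EGFP+ cells and 1.02% of their *Lox* counts, beside 43.15% of all their counts. *Loxl3* had its highest level in cluster 4, at 446 CPM (434 to 459), against 166 CPM (158.3 to 174.9) in injured cells of cluster 3 and 181 CPM (172 to 190) in uninjured cells of cluster 6. Injured cells of cluster 5, with mixed pericyte and endothelial markers, had 76.4 CPM of *Loxl2* (66.9 to 86.8) against 3.20 CPM (2.13 to 4.62) in its uninjured cells. That level came from the 10 cells of plate 211 (90.5 CPM), since the 3 cells of plate 215 held 1 count (2.05 CPM).

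Within fibroblast-like cluster 3, *Lox* differed most between conditions, by 2.55, followed by *P4ha2* (1.36), *Loxl2* (1.31), *P4ha3* (1.15, under 10 CPM) and *Plod2* (1.06). The median of the 10 genes was 0.88 and that of all genes at 10 CPM or more was -0.34. The sorted populations were pooled, with a larger part of tdTomato-EGFP+ cells after injury, and the part of this was not tested. *Lox* stood at 108.7 and 90.8 CPM on the uninjured plates and at 646 and 425 CPM on the injured plates, with no overlap. *Loxl2* stood at 33.9 and 112.7 CPM on the uninjured and 258 and 107 CPM on the injured plates, which overlap. *Plod2* overlapped too, with 57.8 and 12.5 CPM against 46.3 and 93.3 CPM. The hydroxylase genes *P4ha1* (-0.14) and *Plod1* (0.07) hardly differed. *Serpinh1* stood at 2407 CPM before and 3892 CPM after injury in cluster 3, and at 1137 CPM in uninjured cluster 6 against 3462 CPM in cluster 4. In cluster 3 its plates overlapped, with 2671 and 2258 CPM on the uninjured and 4491 and 2613 CPM on the injured plates.

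In uninjured cord the median of the 10 genes was 1.39 higher in cluster 3 than in cluster 6, where the median of all genes was 0.002. Between injured clusters 3 and 4 it was 0.44 higher, against -0.24 for all genes. In both comparisons *Lox* had a difference over 6 (6.05 and 6.50), while *Loxl3* was lower in the fibroblast-like cells (-0.55 and -1.42) and *Loxl2* went from 3.30 to -0.998. Over all cells the median of the 10 genes was 0.52 higher in cluster 3 than in clusters 4 and 6 together.

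How many of the 4 oxidases single cells carried was counted after thinning to 20000 counts. In uninjured cord 40 tdTomato+EGFP+ cells had none of the 4 and 3 had all 4, and among 92 tdTomato-EGFP+ cells 27 had none and 2 had all. After injury 62 of 100 tdTomato+EGFP+ cells had all 4, and 17 tdTomato-EGFP+ cells did. With tdTomato, the share of cells with at least 3 was 6.30% before and 92% after injury, and without tdTomato it was 6.52% and 39.2%. The higher number of genes found in injured cells, given above, was not separated from these shares. In cluster 3 that share was 38.2% before (13 of 34) and 82.9% after injury (29 of 35). In injured pericyte-like cluster 4 none of 47 cells had all 4, 42 had *Loxl2* and 3 had *Lox*.

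**Figure D4:**
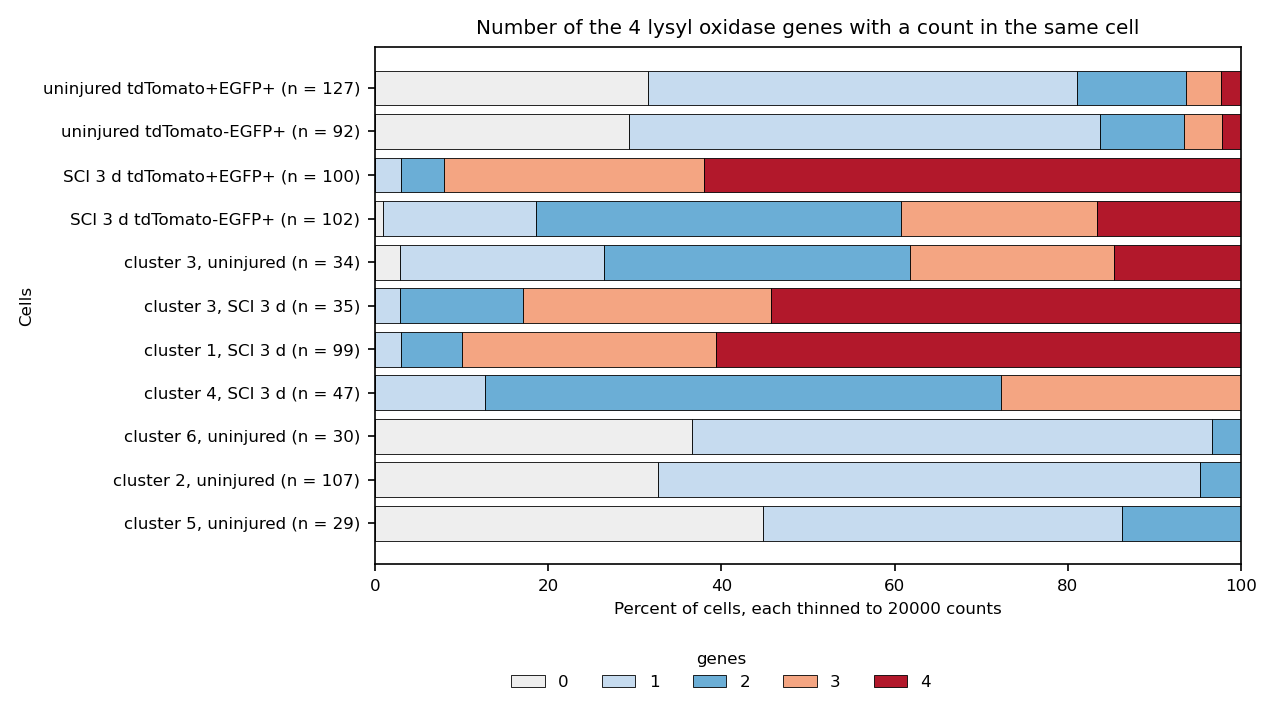
Percent of cells (x axis) with counts of 0 to 4 of the lysyl oxidase genes *Lox*, *Loxl1*, *Loxl2* and *Loxl3*, each cell thinned to 20000 counts, for the 4 groups and for clusters by condition (n is the number of cells). All 4 genes were found in 62 of 100 tdTomato+EGFP+ cells after injury, but in 0 of 47 cells of cluster 4.

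Across the 421 cells with 20000 counts or more, which mix both conditions and share plates and a wide range of depth, the 10 genes varied together to unequal degrees. The highest Pearson r between members, on the scale ln(1 + counts per 10000), was 0.77, between *Loxl2* and *Serpinh1*, followed by 0.64 between *Lox* and *Loxl1* and 0.57 between *Plod2* and *Lox*. *Loxl2* and *Serpinh1* had r of 0.70 over the 202 injured and 0.40 over the 219 uninjured cells. In the same order *Lox* and *Loxl1* had 0.62 and 0.42, and *Plod2* and *Lox* had 0.57 and 0.28. The values that follow are over both conditions together, so genes that differ between conditions can vary together for that reason. *Plod1* was near 0 with *Loxl1* (0.04) and *Lox* (0.07). Among 14253 genes with a count in 10% or more of these cells, *Col1a1* was the most like *Lox* (0.76) and *Loxl1* (0.72). *Loxl2* was most like *Lgals1* (0.84), which encodes galectin-1, and 2 ribosomal protein genes, *Rpsa* (0.83) and *Rplp0* (0.82). *Serpinh1* was most like *Loxl2* and *Plod2* was most like *Col5a2* (0.58). *P4ha1*, *P4ha2*, *P4ha3* and *Plod1* reached no r above 0.36 with any gene.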

How the data were processed

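Single EGFP+ cells from mouse spinal cord were profiled with Smart-seq3. What the authors deposited is a matrix of raw counts, with genes in rows and cells in columns. Per the labels the build is mm10, while the aligner is not given in the sources used here, nor is the nature of a count (reads or molecules). PCR copies are not independent molecules. Of 1968 cell columns, 503 match the labels and 1465 were not used. The labels give 3 days and the series text 5 days, and the labels were followed. The 92 spike-in rows (0.0314% of counts) were left out, and *Ero1l* was added to *Ero1a*, its newer symbol.

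Cells with 200 genes or more and under 20% mitochondrial counts were kept (502). Cells with *Pecam1* over 1 (ln(1 + counts per 10000)) and over *Pdgfrb* were removed (34), and no cell met the rule to remove those with *Gfap* or *Ptprc* over 1. No 2 columns were identical. Cells were sorted singly and no doublet caller was run, so whether cells with markers of 2 types, as in clusters 2 and 5, were joined cells was not tested. Summed counts were scaled to CPM, with a pseudocount of 1. Clusters came from Seurat 5.3.0 (2000 variable genes without the 10 members, 20 components, resolution 0.5). A marker was raised when its log2 difference from all other cells was at least 0.5 and at least as many of the cluster's cells had a count as had none. TMM (edgeR 4.0.16) and DESeq2 1.42.0 size factors served as alternatives, and R 4.3.3, Python 3.11.15 and scipy 1.17.1 were used. The rule for calls was run on Poisson counts simulated with known fold changes and without differences between plates or cells. That run checks the code only and gives no rate of false calls for these plates. The named genes are the 10 members, the genes of 4 lists (other processing genes, substrates, hypoxia-induced and general folding genes), *Slc1a3* and *Pdgfrb*, and up to 3 genes most like each member. The members and lists were chosen with earlier results of these data known.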

Additional observations from a re-analysis of the deposited data

Results flagged for a closer look

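There were 3 genes with opposite sort differences (tdTomato+EGFP+ minus tdTomato-EGFP+, log2 scale) in uninjured and injured cells, with the same sign on both plates of each condition. The change of sign was not tested, since each group is 1 sample. *Loxl1* went from -0.47 to 0.71, *Plod1* from 0.59 to -0.33 and *P4ha1* from 0.074 to -0.026. With TMM scaling the injured values were 1.08, 0.05 and 0.35, so there was no change of sign for *Plod1* and *P4ha1*. For *Loxl1*, 1 cell gave 46.7% of the uninjured tdTomato-EGFP+ counts, and without the top cell of each group the values were 0.15 and 0.84, so its change of sign rests on single cells.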

How the results depend on the processing

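The 14 calls of single genes kept their sign or stood at 0 in all 160 alternatives tried. A call already required 1 sign on every plate or plate pair, so leaving out a plate could hardly turn it. The kept sign is therefore no independent support for the calls. The 2 values of 0 were those of *Plod2* and *Lox* in injured against uninjured tdTomato+EGFP+ cells with a limit of 1200 genes, which left 10, 13, 10 and 0 cells per group, so only 2 of the comparisons could be made. Of the medians and counts of calls, 75 values were within the limits set for an unchanged result and 44 moved, and the cause was not tested unless named. In the order uninjured sort, injured sort, injury in tdTomato+EGFP+, injury in tdTomato-EGFP+ and difference of injury effects, the medians of the 10 genes were 0.04, 0.14, 1.63, 1.39 and 0.26. TMM moved the last 4 to 0.52, 2.30, 1.61 and 0.65, with 3 calls in the injured sort. DESeq2 size factors moved them to 0.67, 2.44, 1.57 and 0.83, with 4 calls in the injured sort and 2 in the difference. Averaging CPM over cells in place of summing counts gave -0.17, -0.001 and 1.75 for the first 3, with 1, 0 and 6 calls. A pseudocount of 10 CPM gave 1.40 and 1.04 for the injury medians and 0 calls in the injured sort. Taking all labelled cells gave 1.72, and the limit of 1200 genes 1.31, for injury in tdTomato+EGFP+ cells. Without the top cell of each gene and group the medians were 0.23 (injured sort), 1.54 (injury in tdTomato-EGFP+) and 0.018 (difference, 0 calls).

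Without plate 209 the uninjured sort gave 0.60 with 2 calls, injury in tdTomato-EGFP+ cells 1.68 and the difference -0.093 with 2 calls. Without plate 213 these were -0.58 with 2 calls, 0.94 and 0.89 with 5 calls. Without plate 211 the injured sort gave 0.63 with 3 calls, injury in tdTomato-EGFP+ cells 1.17 and the difference 0.50 with 2 calls. Without plate 215 the injured sort gave 0.051. The median difference between fibroblast-like and pericyte-like clusters was 0.62 at resolution 0.3, against 0.52. The median share of cells with a count was 60.4% after thinning to 20000 counts, 71.4% at 50000 and 73.5% without thinning. Likeness had no alternative. No paired analysis was possible because each group is 1 sample and no animal is named, although both sorts of a condition share their plates and the within-plate differences are given beside the sums. Depth limits *P4ha3* most, with 25 counts in the uninjured tdTomato-EGFP+ group.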

Other observations

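Among the further processing genes, *Adamts14*, a procollagen N-proteinase, stood at 4.61 CPM before and 44.9 CPM after injury in tdTomato+EGFP+ cells, while the tdTomato-EGFP+ levels were 6.84 and 12.7 CPM. *Pcolce2*, an enhancer of C-propeptide cleavage, stood at 3.72 and 2.31 CPM with tdTomato and at 54.8 and 14.2 CPM without it, with most of the uninjured tdTomato-EGFP+ counts in 1 cell. The basement membrane collagen gene *Col4a1* differed after injury by 0.42 in tdTomato+EGFP+ cells, under the 2-fold limit, and by 1.68 in tdTomato-EGFP+ cells.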
